A study of Homo sapiens with 15 samples.

Results

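The set followed here holds 10 enzymes of ethanolamine and choline phospholipid metabolism, measured in HepG2 cells exposed to chlorinated organophosphate flame retardants. They are ETNPPL, ETNK1, ETNK2, CHKA, CHKB, PCYT2, PCYT1A, CEPT1, PEMT and PISD. They were taken by gene symbol as 10 of the 57773 genes listed for every library, and all 10 passed edgeR's filter on low counts, which left 12567 genes for testing. ETNPPL was chosen by its measured CPM with TCIPP at 2.5 µM against DMSO in these same libraries, where it was already known to be low, so its value in that comparison is a description and carries no test. The other 9 were taken as its neighbours in the pathway, though earlier results of these data were known when the set was drawn up.

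HepG2 is a human hepatocellular carcinoma line, here a single line kept below 25 passages, so no result extends to a second donor or to normal hepatocytes. Poly-A RNA was sequenced from 5 groups of 3 libraries after an exposure of 72 h. The groups were TCEP at 25 µM and at 250 µM, where TCEP is tris(2-chloroethyl) phosphate, TCIPP at 2.5 µM and at 25 µM, where TCIPP is tris(2-chloroisopropyl) phosphate, and the solvent dimethyl sulfoxide (DMSO) alone at 0.1%. All groups were the same unmodified line, and each triplicate was seeded, exposed and extracted on its own. The study asked what each exposure did against the solvent, what the higher concentration of a compound added, and how the related compounds compared. TCIPP differs from TCEP by a methyl group on each chloroalkyl arm.

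Cells make phosphatidylethanolamine and phosphatidylcholine, their main membrane phospholipids, by parallel routes. In each, a kinase phosphorylates the free base (ethanolamine or choline), a cytidyltransferase activates the product to CDP-ethanolamine or CDP-choline, and a phosphotransferase joins it to diacylglycerol. Phosphatidylethanolamine also arises in mitochondria by decarboxylation of phosphatidylserine, and liver cells can methylate it to phosphatidylcholine, which they need for lipoproteins and bile. ETNPPL stands beside the first route: it is a phospho-lyase that breaks phosphoethanolamine down to acetaldehyde, ammonia and phosphate, and so removes the intermediate that the cytidyltransferase uses.

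Total exon reads spanned 5.35 to 26.8 M (megareads) over the libraries, and the median library held 8.89 M. Levels are given in CPM, the exon reads of a gene per 1000000 exon reads of its library, and 3 reads corresponded to 0.112 to 0.560 CPM depending on the library, which covers counting error only. The label was checked against 9 hepatocyte and HepG2 markers, and 9 of 9 were abundant in every group (ALB at 13592 CPM or more in every library), while the leukocyte marker PTPRC stayed at or below 0.126 CPM and the fibroblast genes COL1A2, DCN and LUM were at 0 reads. Other markers of non-liver cells were detected, namely PDGFRB of stellate cells and fibroblasts at 10.2 to 33.6 CPM, COL1A1 at 0.673 to 2.54 CPM, CD14 of monocytes at 1.01 to 2.43 CPM, and the endothelial genes CDH5 at 0.136 to 1.99 CPM and VWF at 0.453 to 1.52 CPM. The summed level of the 5 fibroblast and stellate genes was 12.7 to 19.0 CPM with TCEP at 25 µM, 18.0 to 27.0 with TCEP at 250 µM, 13.9 to 20.7 with TCIPP at 2.5 µM and 17.2 to 34.2 with TCIPP at 25 µM, against 19.6 to 24.6 CPM with DMSO. The 2 endothelial genes summed to 1.70 to 2.65 CPM with TCEP at 25 µM, 1.09 to 1.51 with TCEP at 250 µM, 1.97 to 2.24 with TCIPP at 2.5 µM and 1.46 to 1.87 with TCIPP at 25 µM, against 0.998 to 1.90 CPM with DMSO. Their part in the results was not tested. Mitochondrial genes took 5.91 to 6.54% of exon reads with TCEP at 25 µM, 6.47 to 6.79% with TCEP at 250 µM, 5.68 to 6.37% with TCIPP at 2.5 µM, 6.70 to 7.23% with TCIPP at 25 µM and 6.27 to 7.68% with DMSO. Intron reads took 7.82 to 9.56% of gene reads over all libraries. In bulk RNA, fewer cells expressing a gene and less RNA per cell cannot be told apart.

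ETNPPL (ENSG00000164089, hg19 chromosome 4, 109663196 to 109684210, minus strand) had the lowest mean level per exon length over the 15 libraries of the 10 genes, though not with DMSO alone, and its coefficient of variation in CPM was 66.8%, against 18.5% or less for the other 9. It had 2.09, 1.55 and 1.56 CPM with TCEP at 25 µM, 3.26, 1.66 and 2.48 CPM with TCEP at 250 µM, 0.843, 1.33 and 1.31 CPM with TCIPP at 2.5 µM, 4.49, 1.87 and 2.25 CPM with TCIPP at 25 µM, and 7.08, 2.99 and 6.02 CPM with DMSO. All 6 libraries of the lower concentrations lay below the lowest DMSO library, and of the 6 libraries of the higher concentrations 4 did. The exceptions were replicate 1 of TCEP at 250 µM and replicate 1 of TCIPP at 25 µM. Among the DMSO libraries replicate 2 was the low one.

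**Figure D1:**
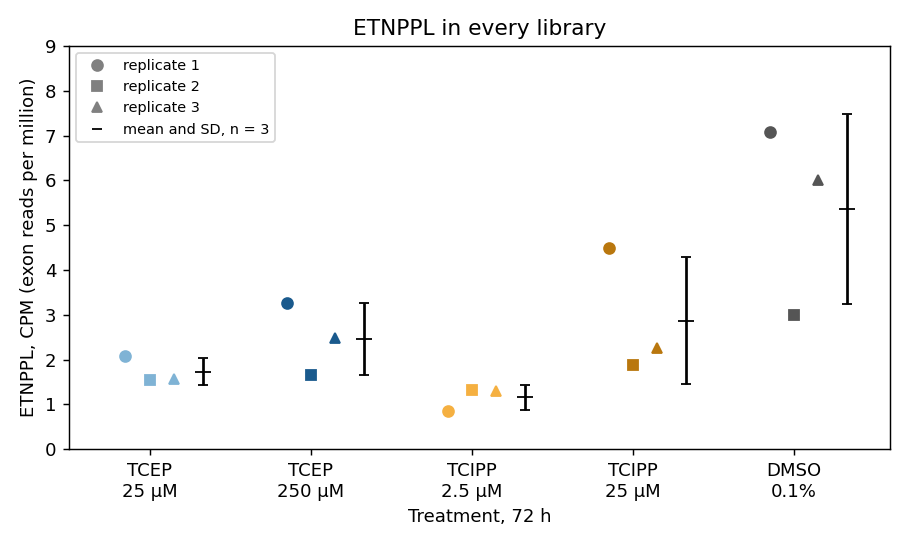
ETNPPL in CPM (counts per 1000000 exon reads) in each of the 15 libraries, by treatment, with replicates as separate symbols and the group mean with its SD as bars. The treated libraries lie between 0.843 and 4.49 CPM and the DMSO libraries between 2.99 and 7.08 CPM, with the lower concentration of each compound below its higher concentration on average.

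The counts behind these levels were small. The libraries held 22, 14 and 23 ETNPPL reads with TCEP at 25 µM, 24, 11 and 52 with TCEP at 250 µM, 6, 9 and 35 with TCIPP at 2.5 µM, 40, 10 and 20 with TCIPP at 25 µM, and 56, 24 and 129 with DMSO. All 475 exon reads of the gene were unique to it, and no annotated gene overlapped it in the tables, so the values do not depend on how shared reads were assigned. Reads spanning exon junctions, which come from spliced RNA, followed the same order at 1.00 ± 0.0899, 1.32 ± 0.490, 0.678 ± 0.473 and 1.40 ± 1.11 CPM with TCEP at 25 µM, TCEP at 250 µM, TCIPP at 2.5 µM and TCIPP at 25 µM, against 3.35 ± 1.51 CPM with DMSO (SD, n = 3 each). Intron reads of the gene were 4, 5, 3 and 10 in the same 4 treated groups, against 30 with DMSO, summed over 3 libraries each.

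Against DMSO, the log2 fold change of ETNPPL was -1.65 ± 0.341 (SE) with TCEP at 25 µM, -1.14 ± 0.329 with TCEP at 250 µM, -2.17 ± 0.361 with TCIPP at 2.5 µM and -0.87 ± 0.334 with TCIPP at 25 µM. With group means of 1.16 ± 0.274 CPM for TCIPP at 2.5 µM and 5.36 ± 2.12 CPM for DMSO (SD, n = 3), the third of these placed ETNPPL 3rd from the lowest log2 fold change of all 12567 genes, and TCEP at 25 µM placed it 12th. These 4 values share the DMSO libraries, and the DMSO libraries entered the comparison by which the gene was chosen, so the other 3 are not independent of that choice. edgeR's quasi-likelihood test with Benjamini-Hochberg adjustment called a gene at an adjusted p under 0.05. It called 12 genes (0.0955% of those tested) with TCIPP at 2.5 µM. ETNPPL was among them, which restates how it was chosen and is no test of it. Its log2 fold change there was -2.22 and -2.31 without replicate 2 and without replicate 3 of TCIPP at 2.5 µM. It was -1.97 and -2.06 without replicate 1 and without replicate 3 of DMSO. The count of 12 fell to 0 in each of these 4 cases, and it was 117 without replicate 1 of TCIPP at 2.5 µM and 307 without DMSO replicate 2. In the other 3 comparisons with DMSO ETNPPL was not called. With TCEP at 25 µM it was called once DMSO replicate 2 was left out (log2 fold change -1.90). Without replicate 1 of TCIPP at 25 µM the value for that exposure was -1.39.

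Just inside the threshold with TCIPP at 2.5 µM stood SPP1, the secreted phosphoprotein osteopontin, at 873 ± 129 CPM with TCIPP against 1457 ± 202 CPM with DMSO and an adjusted p of 0.0488 by edgeR. Just outside stood GLP2R, the receptor of glucagon-like peptide 2, at 0.190 ± 0.214 CPM with TCIPP against 3.28 ± 1.80 CPM with DMSO and a log2 fold change of -4.23.

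Comparisons that used no DMSO library separated the treated groups only partly. ETNPPL was 0.50 ± 0.375 (SE, log2) higher with TCEP at 250 µM than at 25 µM, with a 95% confidence interval of -0.29 to 1.29 and an edgeR adjusted p of 0.807, so the difference was not detectable at this depth. Between TCIPP at 25 µM and TCIPP at 2.5 µM it differed by 1.29 ± 0.401, and all 3 libraries at 25 µM lay above all 3 at 2.5 µM, as did 6.16% of all genes. That comparison uses the libraries in which the gene was chosen as low, so it is again a description, and no p-value from it is a test. The edgeR adjusted p was 0.252. In the fit with the replicate number as a block the same difference was 1.22 and passed edgeR's threshold. Under the block 3.85% of all genes passed in that comparison. Without replicate 1 of TCIPP at 25 µM the difference in the fit without the block was 0.78. The concentration steps of the 2 compounds differed by -0.79 (TCEP step minus TCIPP step, 95% confidence interval -1.95 to 0.37), and edgeR and DESeq2 called 0 genes for that difference (0% of those tested), with 208 at an unadjusted p under 0.05. Without replicate 1 of TCIPP at 25 µM the difference was -0.27.

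The RefSeq promoter table (GRCh38.p14) held 9 of the 10 genes. The promoters of 2 of them are shown because these genes had the lowest values against DMSO with TCIPP at 2.5 µM within the set. Each line gives the 250 bases before the gene start, 5′ to 3′ on the gene's minus strand, with capitals for a motif match.
ETNPPL, chr4:108763054-108763303: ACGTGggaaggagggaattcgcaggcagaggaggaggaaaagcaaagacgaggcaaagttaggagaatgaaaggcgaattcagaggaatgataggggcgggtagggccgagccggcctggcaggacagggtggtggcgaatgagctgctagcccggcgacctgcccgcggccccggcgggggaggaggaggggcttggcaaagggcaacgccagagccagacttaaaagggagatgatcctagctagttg
PCYT1A, chr3:196287727-196287976: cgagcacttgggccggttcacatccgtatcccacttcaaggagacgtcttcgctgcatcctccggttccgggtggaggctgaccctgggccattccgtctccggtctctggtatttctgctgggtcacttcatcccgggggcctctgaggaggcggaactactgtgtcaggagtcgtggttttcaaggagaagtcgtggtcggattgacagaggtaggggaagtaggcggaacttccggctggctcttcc

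Their base composition was alike. The ETNPPL window held 61.2% G and C with 15 CpG pairs and the PCYT1A window 59.6% with 16, against medians of 58% and 11 over the 35116 promoters of the table. Both strands were searched for TATAAA, the box of core promoters, CCAAT, the site of NF-Y, CACGTG, an E box, ACGTG, the core of the hypoxia response element that every E box of that spelling also holds, the HNF1 palindrome, the HNF4 direct repeat, TGATGNAAT of the amino acid response and AGAACA of the glucocorticoid receptor. The only match in these windows was ACGTG at the first base of the ETNPPL window, a string that 18.5% of all promoters in the table hold, and no match says only that these letters are not in the window. The cytidyltransferase gene PCYT2 and the kinase gene CHKB each held CCAAT 3 times on the opposite strand, and 32.0% of all promoters hold it at least once. The shares for the other searches, in the order given, were 10.7% for TATAAA, 6.34% for CACGTG, 0.0057% for HNF1, 0.0171% for HNF4, 0.888% for TGATGNAAT and 12.4% for AGAACA.

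The kinases that start the routes gave no call in the fit without the replicate block. ETNK1 and ETNK2 phosphorylate ethanolamine, and CHKA and CHKB phosphorylate choline and, more weakly, ethanolamine. edgeR called none of these 4 genes in any of the 7 comparisons, in which few genes of any kind were called. TCIPP at 2.5 µM against DMSO called 0.0955% of all genes, TCIPP against TCEP at 25 µM 0.0398% and both concentration steps 0%. The comparisons of TCEP at 25 µM, TCEP at 250 µM and TCIPP at 25 µM with DMSO called 0%, 0% and 0.00796%. By unadjusted p under 0.05, 1915, 653 and 799 genes (15.2%, 5.20% and 6.36%) passed in those 3 comparisons. DESeq2 called 138, 14 and 30 genes in them and limma-voom 4, 0 and 1.

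ETNK1 (hg19 chromosome 12, 22778009 to 22843599) had 40.9, 35.1 and 47.0 CPM with TCEP at 25 µM, 51.6, 40.7 and 54.0 CPM with TCEP at 250 µM, 43.6, 35.6 and 54.0 CPM with TCIPP at 2.5 µM, 52.5, 39.6 and 68.1 CPM with TCIPP at 25 µM, and 42.4, 46.5 and 52.4 CPM with DMSO. In each treated group replicate 2 was the lowest and replicate 3 the highest, and every treated group overlapped DMSO. Its log2 fold change against DMSO was -0.20 ± 0.167 (SE) with TCEP at 25 µM and 0.18 ± 0.168 with TCIPP at 25 µM, of which the second turned to -0.02 without replicate 3 of TCIPP at 25 µM.

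ETNK2 (chromosome 1, 204100190 to 204121307), with 71.4% unique exon reads, had 7.07, 6.35 and 6.41 CPM with TCIPP at 25 µM and 8.01, 8.71 and 8.03 CPM with TCIPP at 2.5 µM, without overlap, as for 6.64% of all genes in the lower direction. The log2 fold change of this step was -0.31 ± 0.173 (SE) and missed the threshold (edgeR adjusted p 0.544). DMSO spanned 5.94 to 9.48 CPM and overlapped every treated group.

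CHKA (chromosome 11, 67820326 to 67888911) lay above DMSO on average with every exposure. It had 145, 159 and 147 CPM with TCIPP at 25 µM, against 144, 128 and 128 CPM with DMSO, so these groups did not overlap, as for 4.97% of all genes in the higher direction. The log2 fold change was 0.12 ± 0.0751 for TCEP at 25 µM, 0.10 ± 0.0754 for TCEP at 250 µM, 0.14 ± 0.0754 for TCIPP at 2.5 µM and 0.17 ± 0.0758 for TCIPP at 25 µM (SE), and the last had an edgeR adjusted p of 0.762. These 4 values kept their sign in all 16 alternative analyses each.

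CHKB (chromosome 22, 51017378 to 51039884) had the opposite sign of CHKA when all exon reads were counted. It had 9.29, 9.17 and 8.96 CPM with TCEP at 25 µM, 10.46, 8.30 and 7.82 CPM with TCEP at 250 µM, 10.1, 10.2 and 9.19 CPM with TCIPP at 2.5 µM, and 11.1, 9.90 and 8.66 CPM with TCIPP at 25 µM, against 10.498, 11.1 and 11.1 CPM with DMSO. The first 3 of these groups lay wholly below DMSO, as did 11.7%, 4.44% and 8.22% of all genes in the same comparisons, and none of the differences passed edgeR's test. Of its exon reads 15.8% were unique, and its annotation overlaps the read-through gene CHKB-CPT1B and CPT1B on the same strand. With unique reads only, the log2 fold change was -0.09 with TCEP at 25 µM, 0.11 with TCEP at 250 µM, 0.03 with TCIPP at 2.5 µM and -0.54 with TCIPP at 25 µM, where all exon reads gave -0.26, -0.34, -0.17 and -0.15. The antisense gene CHKB-AS1 also overlaps it, and whether the counting used strand is not known here.

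**Figure D2:**
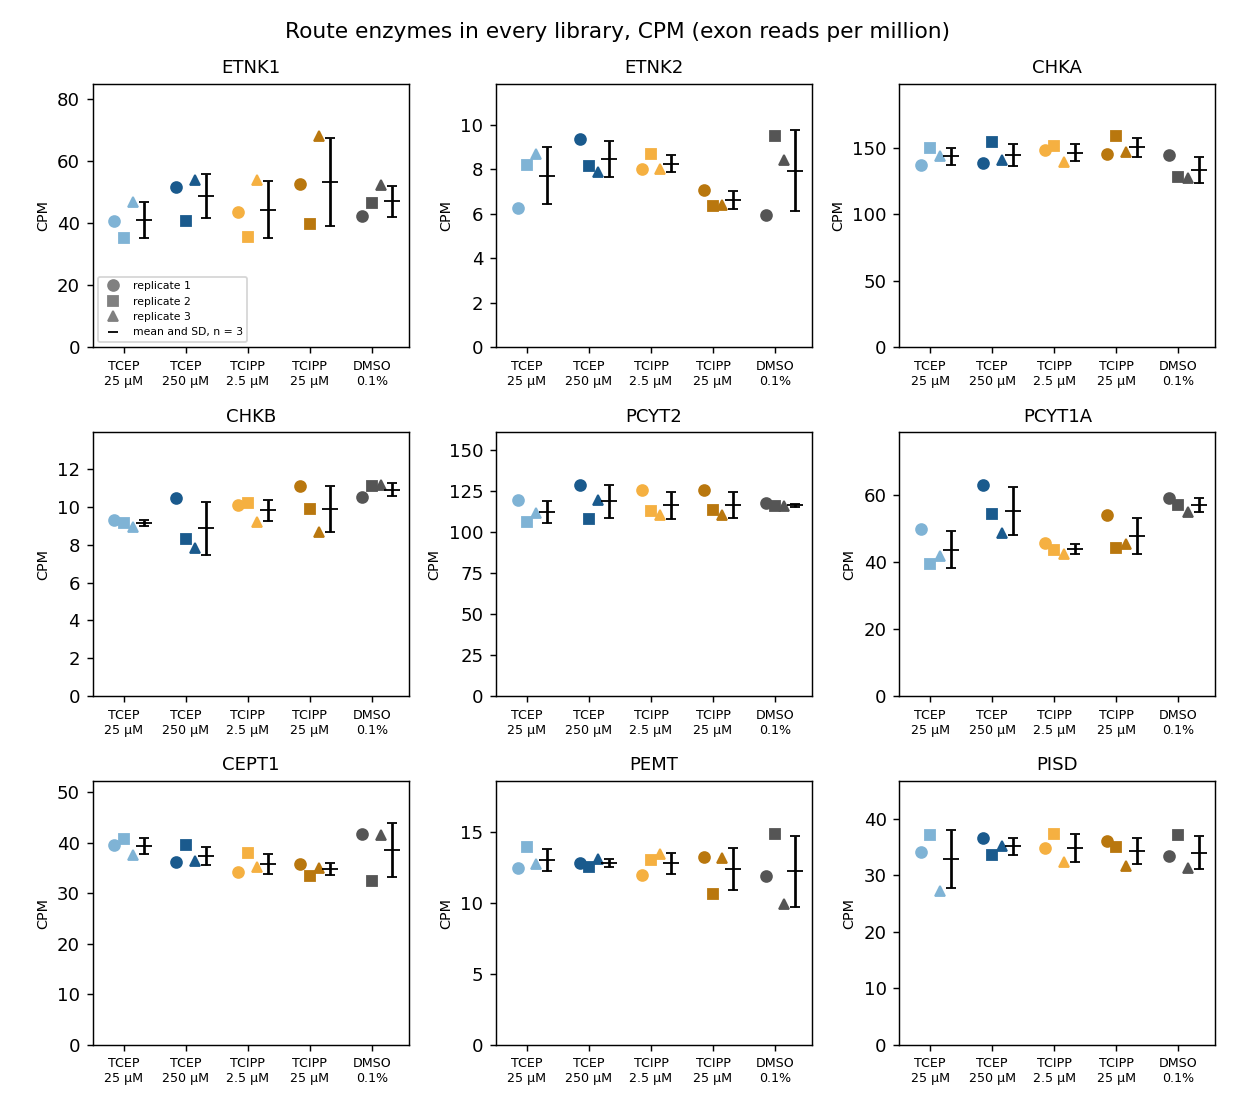
The 9 enzymes other than ETNPPL, in CPM (counts per 1000000 exon reads, each axis from 0) in every library, by treatment, with the group mean and SD as bars. PCYT1A and CHKB have their lower concentrations below all 3 DMSO libraries. PCYT1A with TCIPP at 25 µM and CHKB with TCEP at 250 µM also lie below all 3. CHKA has TCIPP at 25 µM above them, and PCYT2, PEMT and PISD overlap DMSO throughout.

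The cytidyltransferases set the pace of the routes. PCYT2 activates phosphoethanolamine, the molecule that ETNPPL breaks down, and its level hardly moved (chromosome 17, 79858841 to 79869340). It averaged 112 ± 6.64, 119 ± 10.2, 116 ± 8.15 and 116 ± 8.05 CPM with TCEP at 25 µM, TCEP at 250 µM, TCIPP at 2.5 µM and TCIPP at 25 µM, against 116 ± 0.983 CPM with DMSO (SD, n = 3 each). The 95% confidence intervals of its log2 fold change against DMSO ran from -0.21 at the lowest to 0.18 at the highest.

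PCYT1A, the cytidyltransferase of the choline route (chromosome 3, 195941093 to 196014828), lay lower at the lower concentrations. It had 49.8, 39.3 and 41.9 CPM with TCEP at 25 µM, 62.9, 54.2 and 48.6 CPM with TCEP at 250 µM, 45.5, 43.7 and 42.4 CPM with TCIPP at 2.5 µM, and 53.9, 44.1 and 45.2 CPM with TCIPP at 25 µM, against 59.2, 57.0 and 54.8 CPM with DMSO. All groups but TCEP at 250 µM lay below the 3 DMSO libraries, as did 11.7% of all genes with TCEP at 25 µM, 8.22% with TCIPP at 2.5 µM and 4.23% with TCIPP at 25 µM. The log2 fold change was -0.38 ± 0.105 with TCEP at 25 µM, -0.07 ± 0.105 with TCEP at 250 µM, -0.38 ± 0.106 with TCIPP at 2.5 µM and -0.25 ± 0.107 with TCIPP at 25 µM (SE). The edgeR adjusted p-values were 0.141, 0.997, 0.119 and 0.735, so none passed. With the replicate number as a block they were 0.00211 with TCEP at 25 µM and 0.00244 with TCIPP at 2.5 µM. The block called 1037 and 941 of all genes tested in these comparisons. Same-numbered treated and DMSO libraries deviated together only weakly there (correlations of 0.029 to 0.152). Between TCEP at 250 and 25 µM the difference was 0.31 ± 0.106 (SE, edgeR adjusted p 0.623). With the replicate number as a block it was 0.30 with an edgeR adjusted p of 0.0361, the 1 member called in that comparison, where the block called 1.47% of all genes and the fit without it 0%.

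How the reads of PCYT1A were assigned matters for these values, since 36.2% of them were unique to the gene. Unique reads, per 1000000 unique exon reads, averaged 19.9 ± 2.21, 23.1 ± 4.35, 21.1 ± 2.79 and 18.2 ± 3.69 with TCEP at 25 µM, TCEP at 250 µM, TCIPP at 2.5 µM and TCIPP at 25 µM, against 23.0 ± 4.02 with DMSO (SD, n = 3 each), and every group overlapped DMSO. The log2 fold changes from unique reads alone were -0.22, -0.05, -0.16 and -0.35 in the same order, so the order of the exposures was not the one that all exon reads gave. Reads with more than 1 possible place, per 1000000 exon reads, averaged 26.5 ± 6.10, 35.2 ± 3.88, 25.6 ± 2.23 and 31.9 ± 4.41, against 37.02 ± 2.83 with DMSO. The annotation of PCYT1A overlaps RP11-447L10.1 on the same strand (103 exon reads over all libraries, 1 of them unique). It also overlaps SLC51A on the opposite strand (1229 exon reads, 954 unique). Which other genes share those reads was not tested.

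**Figure D3:**
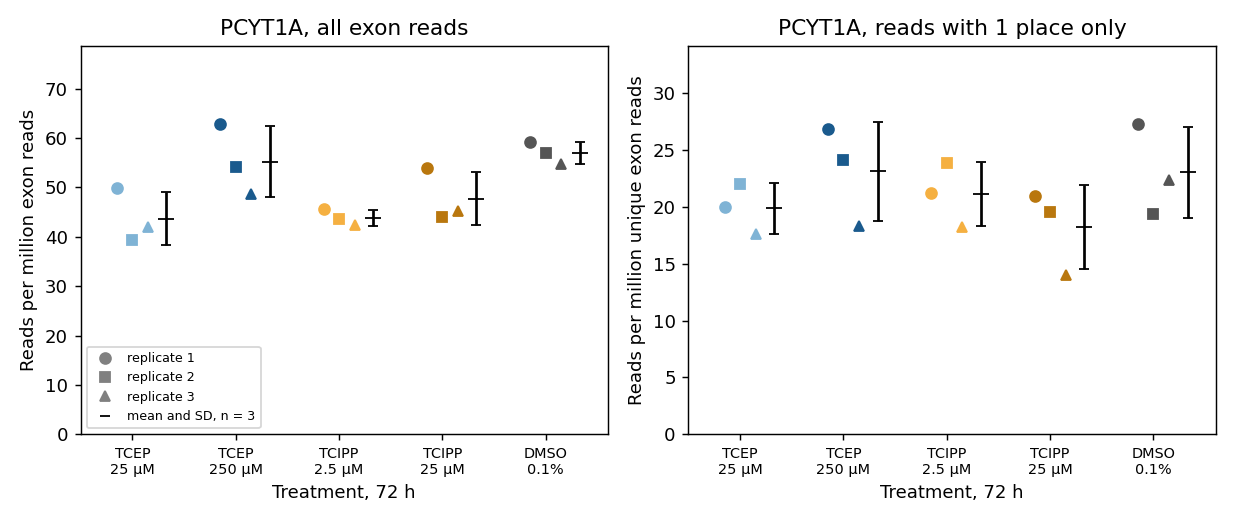
PCYT1A in every library from all exon reads (left, reads per 1000000 exon reads) and from reads with a single place (right, reads per 1000000 unique exon reads), with group means and SD. All exon reads put the lower concentrations, between 39.3 and 49.8 CPM, and TCIPP at 25 µM below the 3 DMSO libraries. The unique reads of every group overlap DMSO.

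The last step and the other sources of these lipids showed no called change. CEPT1, which joins either CDP-base to diacylglycerol (chromosome 1, 111682249 to 111727724), averaged 39.3 ± 1.59, 37.4 ± 1.86, 35.8 ± 1.90 and 34.7 ± 1.20 CPM with TCEP at 25 µM, TCEP at 250 µM, TCIPP at 2.5 µM and TCIPP at 25 µM, against 38.6 ± 5.31 CPM with DMSO (SD, n = 3 each). One DMSO library, replicate 2, was at 32.4 CPM, below all treated libraries, and the other two were above them. PEMT, the methyltransferase that turns phosphatidylethanolamine into phosphatidylcholine (chromosome 17, 17408877 to 17495022), lay between 10.6 and 13.9 CPM in the treated libraries and between 9.89 and 14.8 CPM with DMSO. PISD, the mitochondrial phosphatidylserine decarboxylase (chromosome 22, 32014477 to 32058418), lay between 27.3 and 37.3 CPM in the treated libraries and between 31.3 and 37.2 CPM with DMSO. Over both genes and all 4 exposures, the 95% confidence intervals of the log2 fold change against DMSO stayed between -0.27 and 0.41.

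**Figure D4:**
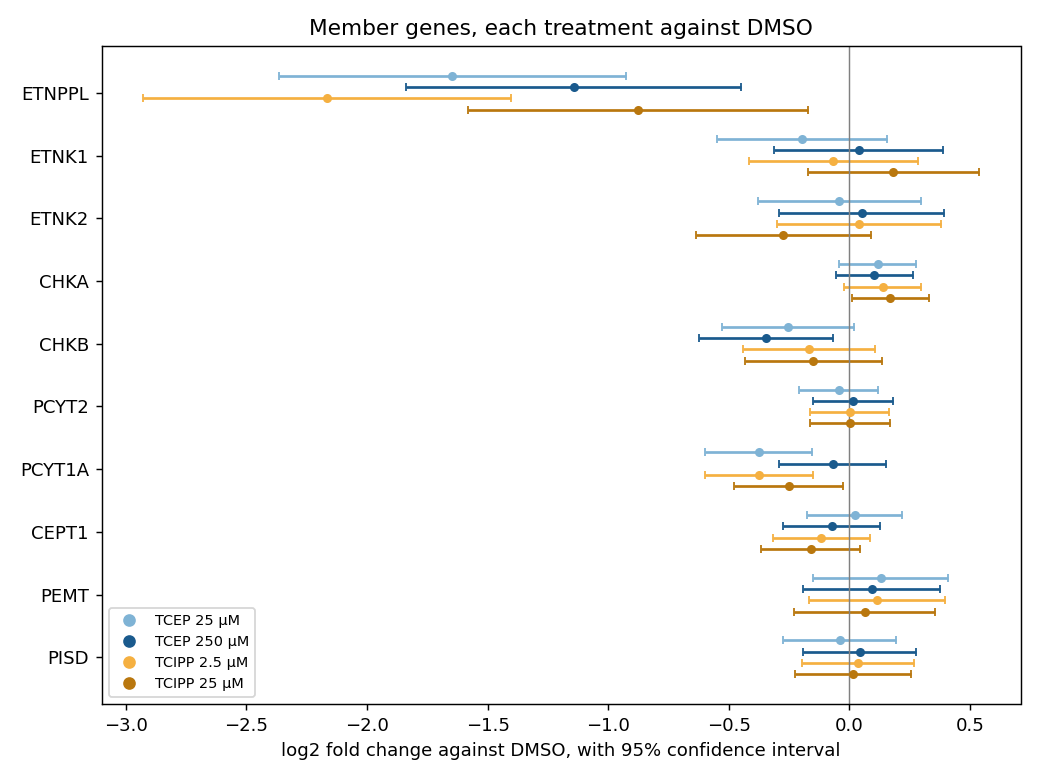
Log2 fold change of each of the 10 genes against DMSO with its 95% confidence interval (edgeR), for the 4 exposures. ETNPPL lies between -0.87 and -2.17 and the other 9 genes between -0.38 and 0.18. ETNPPL was chosen as low with TCIPP at 2.5 µM against these DMSO libraries. Its distance from the other genes, and its interval in that comparison, are therefore a description and no test. The 4 intervals of a gene share the DMSO libraries.

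For the set as a whole, the median log2 fold change of the 10 genes was -0.04 with TCEP at 25 µM, 0.03 with TCEP at 250 µM, -0.03 with TCIPP at 2.5 µM and -0.07 with TCIPP at 25 µM, where the medians of all genes tested were 0.00045, 0.0017, -0.0040 and -0.0024. In the same order, 3, 6, 5 and 5 of the 10 had a positive value, and 50.1%, 50.6%, 48.9% and 49.2% of all genes did. Many of these values were close to 0, and over the 7 comparisons 38 of the 70 values changed sign in at least 1 alternative analysis. Members lying wholly below DMSO numbered 3, 1, 3 and 1, and those wholly above it 0, 0, 0 and 1. ETNPPL, chosen as low against these DMSO libraries, was 1 of the 3 in both lower-concentration comparisons, and without it 2, 1, 2 and 1 of the other 9 lay wholly below DMSO. Over all genes, 11.7%, 4.44%, 8.22% and 4.23% lay wholly below DMSO and 10.9%, 6.77%, 8.58% and 4.97% wholly above it. With 9 genes, of which CHKB and PCYT1A rest mostly on shared reads, these counts are given as a description.

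At 25 µM, the 1 concentration both compounds shared, TCIPP was compared with TCEP directly, which is 1 pair. ETNPPL was 0.77 ± 0.381 (SE, log2) higher with TCIPP, at 4.49, 1.87 and 2.25 CPM against 2.09, 1.55 and 1.56 CPM with TCEP, and the groups overlapped. The 95% confidence interval of the difference was -0.03 to 1.58, the edgeR adjusted p was 0.295, and without replicate 1 of TCIPP the value was 0.26. edgeR called 5 genes (0.0398% of those tested), and 0 of the 10 members were among them. That count was 208 without replicate 2 of TCIPP and 0 without any other of the 6 libraries. By unadjusted p under 0.05, 1 member and 2278 genes passed, and DESeq2 and limma-voom called 334 and 4 genes.

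The 1 member was ETNK1, the ethanolamine kinase with the higher level per length, at 52.5, 39.6 and 68.1 CPM with TCIPP and 40.9, 35.1 and 47.0 CPM with TCEP. In each replicate the TCIPP library was above the TCEP library of the same number, although the groups overlapped. The difference was 0.38 ± 0.169 (SE, log2; 95% confidence interval 0.02 to 0.74; edgeR adjusted p 0.248). With the replicate number as a block it was 0.37 with an edgeR adjusted p of 0.0182, in a fit that called 8.75% of all genes. CEPT1 had 35.8, 33.4 and 35.0 CPM with TCIPP and 39.6, 40.7 and 37.5 CPM with TCEP, without overlap, as for 9.11% of all genes in the lower direction (11% in the higher), and its difference was -0.18 ± 0.0967 (SE, log2; edgeR adjusted p 0.331). The 95% confidence intervals of the remaining differences, TCIPP minus TCEP in log2, were -0.60 to 0.13 for ETNK2, -0.11 to 0.21 for CHKA, -0.18 to 0.39 for CHKB, -0.12 to 0.21 for PCYT2, -0.10 to 0.35 for PCYT1A, -0.36 to 0.22 for PEMT and -0.18 to 0.30 for PISD. Between TCEP at 250 and 25 µM and between TCIPP at 25 and 2.5 µM edgeR called 0 of the 10 members and 0% of all genes, with 900 and 1358 genes at an unadjusted p under 0.05. DESeq2 called 14 and 62 genes in these steps and limma-voom 0 in both. In the TCEP step 0 members lay wholly above or wholly below the lower concentration, as against 9.31% and 6.17% of all genes.

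Levels can be set against each other only per exon length, for which the deposited RPKM values (reads per kilobase of exon per 1000000 gene reads) were used. Over the 15 libraries CHKA was the most abundant at 33.9 ± 2.11 RPKM, followed by PCYT2 at 15.4 ± 0.897, PEMT at 6.72 ± 0.648, PISD at 6.26 ± 0.514, PCYT1A at 5.67 ± 0.806, ETNK1 at 5.24 ± 0.950, CEPT1 at 4.04 ± 0.325, CHKB at 2.94 ± 0.318, ETNK2 at 1.53 ± 0.225 and ETNPPL at 0.841 ± 0.559 (SD, n = 15). The ranges over libraries of PEMT, PISD, PCYT1A and ETNK1 overlapped one another, so their order is not settled by these data, and CEPT1 overlapped ETNK1 at its upper end. CHKB lay below CEPT1 and above ETNK2 in all libraries, whereas CHKA and PCYT2 lay above all others in every library. With DMSO, ETNPPL reached 2.18, 0.924 and 1.86 RPKM, and its mean of 1.66 ± 0.654 RPKM there stood beside 1.56 ± 0.357 RPKM for ETNK2 (SD, n = 3), so with DMSO alone the last 2 places are not settled. Of the choline kinases, CHKA exceeded CHKB per length 11.5 to 12.7 times with TCEP at 25 µM, 10.3 to 14.5 times with TCEP at 250 µM, 11.4 to 11.8 times with TCIPP at 2.5 µM and 10.2 to 13.2 times with TCIPP at 25 µM, against 8.91 to 10.7 times with DMSO. The lower concentrations lay above the DMSO range and the higher ones overlapped it, and the CHKB values rest on mostly shared reads.

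**Figure D5:**
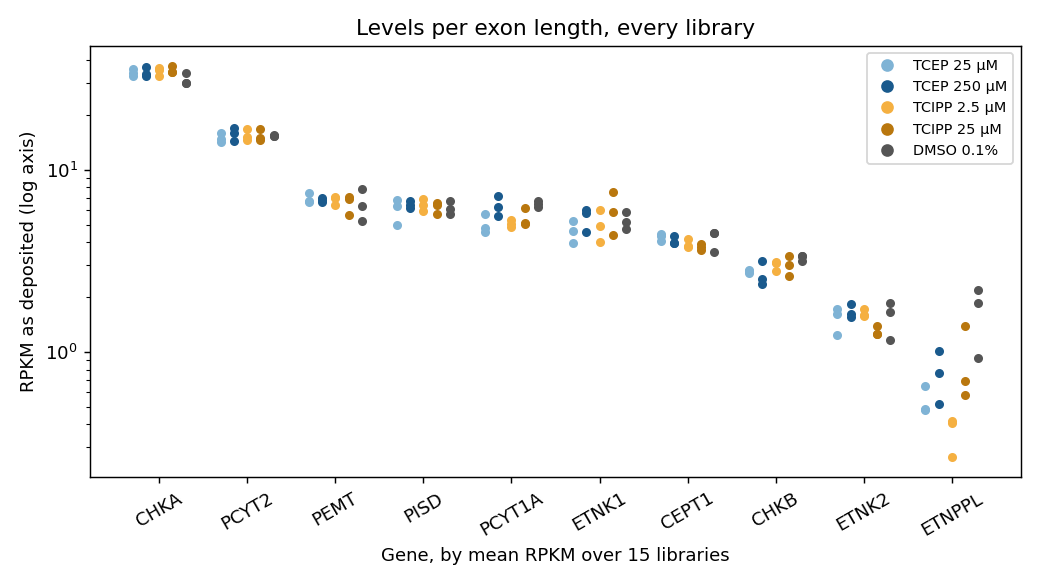
Deposited RPKM of the 10 genes on a log axis in every library, genes ordered by their mean over 15 libraries and colours giving the treatment. CHKA and PCYT2 stand above the rest in every library, and ETNPPL has the lowest mean and the widest spread on this axis, between 0.264 and 2.18 RPKM.

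The genes whose pattern over the 15 libraries was most like that of ETNPPL were ranked by Pearson correlation of log2(CPM + 0.5) among 12299 tested genes with a mean of at least 1 CPM. The 5 highest were GLP2R (0.914), WDR77 (0.907), a partner of an arginine methyltransferase, SUGP2 (0.902), NAPB (0.897), a vesicle fusion factor, and VDAC3 (0.893), a channel of the outer mitochondrial membrane. GLP2R averaged only 0.190 CPM with TCIPP at 2.5 µM and 0.308 CPM with TCEP at 25 µM, near the level of 3 reads. With 0.1 or 1 added in place of 0.5, its correlation was 0.867 or 0.930, and 4 of these 5 genes stayed among the 5 highest. The 5 lowest were CARD10 (-0.914), TPT1-AS1 (-0.905), PTP4A3 (-0.904), a phosphatase, FHL2 (-0.899), a LIM domain cofactor, and GRB10 (-0.899), an adaptor of insulin receptor signalling. Mean levels of FHL2 were 93.3, 71.7, 92.4 and 67.3 CPM with TCEP at 25 µM, TCEP at 250 µM, TCIPP at 2.5 µM and TCIPP at 25 µM, against 56.1 CPM with DMSO, so its means were high at the lower concentrations, the groups with the lowest ETNPPL means. The libraries share depth, treatment and replicate, and these values describe 15 points without a test. Among the other members PCYT1A was most like ETNPPL (0.735, 189th of the 12299), followed by CHKB (0.49), and CHKA was least like it (-0.48). PCYT1A and CHKB rest mostly on shared reads (36.2% and 15.8% unique), and likeness on unique reads alone was not tested. The ETNPPL pattern holds the libraries by which the gene was chosen as low, so likeness to it is not independent of that choice.

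Around the 10 members, 101 further genes in 10 lists of neighbouring steps were looked up, and all were found, 88 were tested and 0 were called by edgeR in any of the 7 comparisons. Of the 88, 17, 4, 14 and 5 had an unadjusted p under 0.05 with TCEP at 25 µM, TCEP at 250 µM, TCIPP at 2.5 µM and TCIPP at 25 µM against DMSO, which are 19.3%, 4.55%, 15.9% and 5.68% of them. Over all genes tested the shares were 15.2%, 5.20%, 13.9% and 6.36%. Their median log2 fold changes were -0.05, -0.02, -0.01 and 0.0023, and 37, 40, 38 and 44 were positive. The genes named here are, in each list, the 3 with the smallest unadjusted p over these 4 comparisons, so each value stands in the comparison in which it was smallest.

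For the supply of phosphatidic acid and diacylglycerol, 5 of 10 tested genes had an unadjusted p under 0.05 with TCEP at 25 µM and 5 of 10 with TCIPP at 2.5 µM. Over all genes 15.2% and 13.9% did. Of the 10, 5 and 1 lay wholly below DMSO in these comparisons, against 11.7% and 8.22% of all genes. LPIN3, a phosphatidate phosphatase, had 18.2, 15.2 and 17.4 CPM with TCEP at 25 µM, against 24.8, 24.5 and 21.5 CPM with DMSO (log2 fold change -0.46 ± 0.0940 SE; edgeR adjusted p 0.116). It lay wholly below DMSO in the other exposures too. It spanned 17.5 to 19.8 CPM with TCEP at 250 µM, 19.3 to 20.8 with TCIPP at 2.5 µM and 18.0 to 20.2 with TCIPP at 25 µM. Over all genes 4.44%, 8.22% and 4.23% lay wholly below DMSO in these comparisons. DGAT1, which turns diacylglycerol into triglyceride, had 16.9, 16.8 and 18.9 CPM with TCEP at 25 µM, against 24.8, 26.3 and 22.3 CPM with DMSO (-0.46 ± 0.127; edgeR adjusted p 0.136). DGAT1 also lay wholly below DMSO with TCEP at 250 µM (20.5, 17.5 and 19.8 CPM), and it overlapped DMSO with TCIPP. AGPAT2, an acyltransferase that makes phosphatidic acid, had 13.6, 23.6 and 19.5 CPM with TCIPP at 2.5 µM, against 11.9, 14.7 and 11.9 CPM with DMSO, and the groups overlapped (0.58 ± 0.166; edgeR adjusted p 0.125).

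For the lysophospholipid acyltransferases, 4 of 7 tested genes had an unadjusted p under 0.05 with TCEP at 25 µM and 1 of 7 with TCIPP at 2.5 µM, against 15.2% and 13.9% of all genes. LPCAT1, which reacylates lysophosphatidylcholine, had 142, 204 and 177 CPM with TCIPP at 2.5 µM, against 118, 133 and 116 CPM with DMSO, without overlap, as for 8.58% of all genes in the higher direction (0.52 ± 0.134 SE; edgeR adjusted p 0.0963). MBOAT7, an acyltransferase of lysophosphatidylinositol, had a log2 fold change of -0.27 and LCAT, the plasma enzyme that esterifies cholesterol, of -0.34, both with TCEP at 25 µM and neither called.

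In the CDP-base routes themselves the remaining enzymes were PCYT1B, the second choline cytidyltransferase, and the phosphotransferases CHPT1 and EPT1. PCYT1B had 11.0, 10.9 and 11.2 CPM with TCIPP at 2.5 µM, against 14.9, 12.8 and 14.0 CPM with DMSO, without overlap, as for 8.22% of all genes in the lower direction (log2 fold change -0.34 ± 0.117 SE; edgeR adjusted p 0.192). CHPT1 and EPT1 had log2 fold changes of -0.12 and -0.09 in the same comparison. Among genes that supply phosphoethanolamine by sphingolipid breakdown, SPHK1, a sphingosine kinase, had -0.32 and SGPL1, the lyase that releases phosphoethanolamine, -0.12, both with TCEP at 25 µM. PHYKPL, the closest relative of ETNPPL, had 0.21 with TCIPP at 25 µM, at 16.3 ± 1.38 CPM against 14.2 ± 1.03 CPM with DMSO (SD, n = 3).

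For breakdown of phospholipids and glycerophosphodiesters, 2 of 20 tested genes had an unadjusted p under 0.05 with each of TCEP at 25 µM, TCIPP at 2.5 µM and TCIPP at 25 µM. Over all genes 15.2%, 13.9% and 6.36% did. PNPLA6, the neuropathy target esterase that deacylates phosphatidylcholine and is a known target of some organophosphates, had 21.3, 14.1 and 18.1 CPM with TCEP at 25 µM, against 26.6, 26.3 and 33.1 CPM with DMSO, without overlap, as for 11.7% of all genes in the lower direction (log2 fold change -0.69 ± 0.230 SE; edgeR adjusted p 0.183). With TCEP at 250 µM it had 25.9, 18.0 and 24.3 CPM, also wholly below DMSO, as for 4.44% of all genes. With TCIPP it overlapped DMSO, at 13.7 to 27.7 CPM for 2.5 µM and 20.9 to 40.5 CPM for 25 µM. LIPC, hepatic lipase, had -0.28 with TCIPP at 25 µM and LYPLA2, a lysophospholipase, -0.24 with TCEP at 25 µM.

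The remaining lists gave small values and no call. For choline uptake these were SLC44A2 at 0.44 with TCIPP at 2.5 µM, and SLC44A3 at -0.31 and FLVCR1 at 0.15 with TCIPP at 25 µM. In the list for choline oxidation and betaine, SARDH had -0.35 with TCEP at 25 µM. CHDH had 0.11 and BHMT2 -0.23 with TCIPP at 2.5 µM. In the methyl donor cycle that feeds PEMT, AHCY had 0.23 and MAT2A -0.16 with TCIPP at 2.5 µM and MTR 0.23 with TCEP at 25 µM. In the list for phosphatidylserine and mitochondrial phospholipids, CRLS1, cardiolipin synthase, had -0.26 with TCIPP at 2.5 µM. CDIPT had -0.16 with TCEP at 25 µM and CDS2 -0.09 with TCEP at 250 µM. In the list for sphingomyelin and ceramide phosphoethanolamine, SMPDL3A had 0.31 and SMPD4 -0.19 with TCEP at 25 µM. SAMD8 had 0.19 with TCIPP at 25 µM. All of these are log2 fold changes against DMSO.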

How the data were processed

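The authors mapped and counted the paired reads (50 bases, stranded poly-A libraries) with CLC Genomics Workbench, as the series' design text says. The submitters' processing notes name hg19 (GRCh37). Whether strand was used in counting is not stated there. Genes on the opposite strand overlap members, among them ANAPC11 for PCYT2, SFI1 for PISD and DRAM2 for CEPT1, and their part in the counts was not tested. The deposited tables hold whole-number read counts per gene. The deposited RPKM values were recomputed from exon reads per kilobase of exon and 1000000 gene reads, and 100% of genes came within a relative tolerance of 0.0001. Gene starts were moved to a 1-based scale.

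Genes were tested with edgeR 4.0.16 in R 4.3.3 on exon reads, after filterByExpr and TMM scaling, in 1 fit of all 15 libraries, with Benjamini-Hochberg adjustment over 12567 genes. The code was tested on simulated data. The SE of a log2 fold change is its size over the root of the F statistic. Alternatives included DESeq2 1.42.0 and limma-voom (limma 3.58.1). Same-numbered replicates deviated together over genes in the 3 comparisons between treated groups (correlations of 0.177 to 0.297). Blocked values therefore stand beside those comparisons where they change a call. With DMSO the correlations were smaller, at 0.016 to 0.158. Differently numbered libraries were not compared in this way. The labels do not say what a number marks. The members, gene lists and rules for naming genes were chosen with earlier results of these data known. Named genes were all members, the 3 per list with the smallest p, the 5 most and least like ETNPPL, and those beside the threshold. The triplicates were separately seeded cultures of 1 line, and p-values measure the spread between them.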

Additional observations from a re-analysis of the deposited data

How the results depend on the processing

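Over the 70 comparisons of members, 38 log2 fold changes had the opposite sign in at least 1 alternative, of which 1 was over 0.2 in size (CHKB with TCEP at 250 µM). Among 66 values of members and neighbouring genes treated singly, 11 of 1062 recomputed values did. With unique exon reads only, PCYT1A was at -0.19 (TCIPP 25 against 2.5 µM) and -0.13 (TCIPP against TCEP at 25 µM), and CHKB at 0.11 and 0.031 (TCEP at 250 µM and TCIPP at 2.5 µM against DMSO) and -0.45 (TCIPP against TCEP at 25 µM); the cause was not tested. Leaving out 1 library at a time gave -0.17 to 0.026 for PCYT1A with TCEP at 250 µM and -0.020 to 0.33 for ETNK1 with TCIPP at 25 µM against DMSO. For TCIPP against TCEP at 25 µM it gave -0.0056 to 0.21 for CHKB, -0.020 to 0.094 for PCYT2, -0.12 to 0.0091 for PEMT and -0.077 to 0.16 for PISD.

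Of the 10 members, no filter on low counts called 2, 1 and 2 with TCEP at 25 µM, TCEP at 250 µM and TCIPP at 2.5 µM against DMSO, 1 for the TCIPP step and 1 for TCIPP against TCEP. Over all genes it called 618, 50, 553, 345 and 756 in the same order. The replicate block called 2 (ETNPPL and PCYT1A) with TCEP at 25 µM, 2 with TCIPP at 2.5 µM and 0 at the higher concentrations against DMSO, and 1 in each of the 3 comparisons between treated groups, and changed no other call of a member. Fitting only the groups compared called 1 member with TCEP at 25 µM, where it called 135 of all genes. DESeq2 and total gene reads called 0 members with TCIPP at 2.5 µM. Leaving out 1 library gave 0 to 1 members called with TCEP at 25 µM and 0 to 1 with TCIPP at 2.5 µM. Calls of ETNPPL that rest on the libraries with TCIPP at 2.5 µM are in these counts. They are no test of it, since it was chosen as low there. DESeq2 gave ETNPPL no adjusted p in 7 comparisons.

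Over all genes, TCEP at 25 µM, TCEP at 250 µM, TCIPP at 2.5 µM and TCIPP at 25 µM against DMSO called 0, 0, 12 and 1 genes; the block called 1037, 34, 941 and 47, no filter 618, 50, 553 and 80, and DESeq2 138, 14, 237 and 30. Leaving out 1 library gave 0 to 29, 0 to 1, 0 to 307 and 0 to 5. For TCIPP at 2.5 µM, limma-voom called 104, unique exon reads 122, library totals 35 and total gene reads 0. ETNPPL rests on 6 to 129 reads a library, which limits its precision.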
